A study of Saccharomyces cerevisiae with 16 samples.

Results

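Budding yeast takes up amino acids through a family of proton-coupled permeases in the plasma membrane, some with a broad and some with a narrow range of substrates. Their genes are known for regulation by nitrogen catabolite repression, in which the GATA factors Gln3 and Gat1 activate genes for the use of poor nitrogen sources once good ones run short, and by the SPS sensor, in which Ssy1, Ptr3 and Ssy5 detect external amino acids and release the transcription factors Stp1 and Stp2. The permease proteins are also packaged, sorted and ubiquitinated according to the nitrogen supply, a layer that RNA measurements do not cover.

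The 10 genes described here are the permeases GAP1, PUT4, CAN1, LYP1, AGP1, GNP1, BAP2, BAP3, TAT1 and TAT2, chosen by symbol among 5716 probe sets of an Affymetrix yeast array. Each of the 10 had 1 probe set, and the names of all 10 probe sets carry the plain suffix, without the mark for probes shared within a family. Cross-hybridization between these related genes was not tested.

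The 16 arrays measured total RNA of chemostat samples taken at steady state. A mutant strain (SCE088) and a reference strain (SCE090) were each grown under nitrogen limitation on ethanol, under ethanol limitation, under nitrogen limitation on glucose and under glucose limitation, which gives 8 groups of 2 arrays. Ammonium sulfate was the limiting nutrient in the nitrogen-limited samples. The labels do not name the mutated gene, so no gene could be checked against the strain labels, and they state no dilution rate. They also leave it unsaid whether both arrays of a group stem from independent cultures, and the p-values then cover only the variation from array to array, technical or not. Since these are bulk samples, fewer cells with a transcript and less transcript per cell cannot be told apart.

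Values are log2 of the normalized intensity of a probe set, a level that can be compared between arrays but not between genes. The arrays had median log2 intensities between 11.91 and 12.01, and the 2 arrays of a group correlated at 0.984 to 0.997 across probe sets, which are not independent replicates. Differences are between group means on the log2 scale, given with the standard error (SE) and the Benjamini-Hochberg adjusted p of 1 limma fit to all 16 arrays and all 5716 probe sets. A difference was called at an adjusted p under 0.05.

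The probe sets of the 10 permeases differed in how far the 8 group means spread. TAT2, the high-affinity permease for tryptophan and tyrosine, had the widest spread of these genes, with 3.13 log2 units between its highest and its lowest group mean, an 8.74-fold range in intensity. BAP2, a permease for branched-chain amino acids, spanned 2.29 units, GNP1, a permease known for high-affinity glutamine uptake, 2.18 units, and AGP1, a low-affinity permease with a broad range of substrates, 2.09 units. TAT1, a tyrosine permease, spanned 1.45 units and BAP3, the paralog of BAP2, 1.31 units. The arginine permease CAN1 spanned 0.93, the proline permease PUT4 0.92 and GAP1, the general amino acid permease, 0.73 units. The lysine permease LYP1 spanned 0.32 units, below the median of 0.46 units over all probe sets, while the other 9 genes lay above that median. GAP1, PUT4 and LYP1 had bright probe sets, with mean log2 intensities at the 97.5, 93.8 and 89.6 percentiles of all probe sets. GNP1, TAT2, TAT1 and BAP3 had dim ones, at the 15.4, 7.63, 6.89 and 1.10 percentiles. TAT2 reached down to 7.88, within the BAP3 range of 6.64 to 8.59. Whether spreads narrow at the bright end or fold sizes shift at the dim end was not tested.

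**Figure D1:**
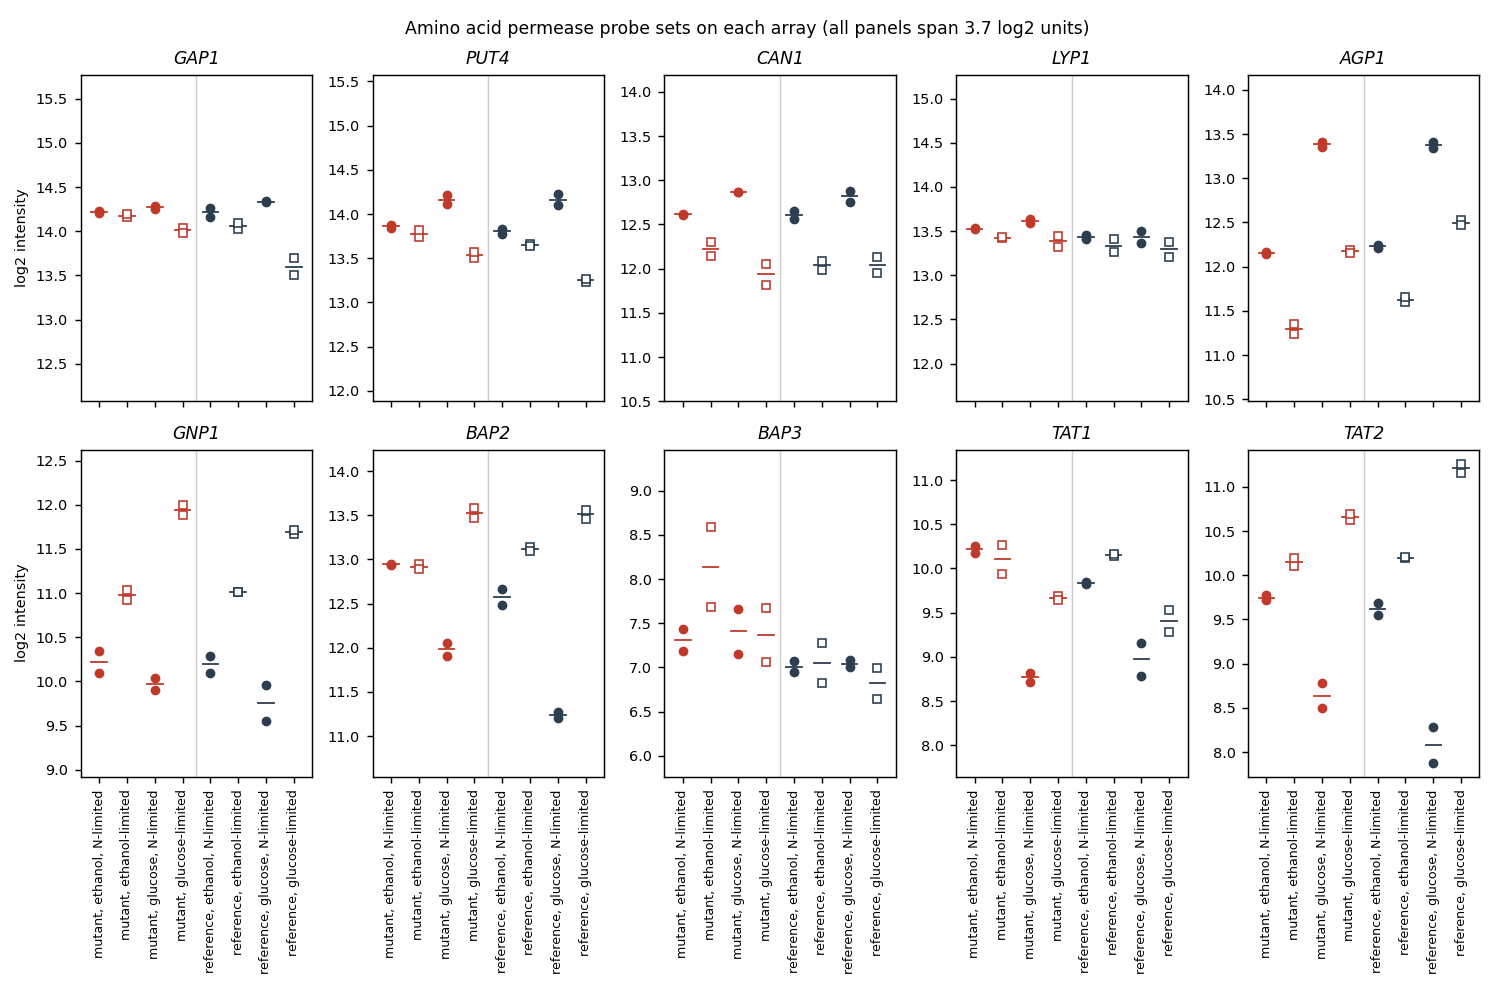
Log2 intensity (y axis) of the 10 permease probe sets on each of the 16 arrays, by group (x axis; red for the mutant, dark blue for the reference strain; filled circles for nitrogen limitation, open squares for carbon limitation; lines at the mean of the 2 arrays). In the 4 nitrogen-limited arrays on glucose TAT2 lay between 7.88 and 8.78 and AGP1 between 13.34 and 13.41, while LYP1 lay between 13.21 and 13.63 over all 16 arrays.

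The first question was how the permease genes differed between nitrogen limitation and carbon limitation when glucose was the carbon source. The genes split into 2 directions in both strains. In the mutant GAP1, PUT4, CAN1, LYP1 and AGP1 were higher under nitrogen limitation and GNP1, BAP2, TAT1 and TAT2 were lower, and in the reference strain GAP1, PUT4, CAN1 and AGP1 were higher and the same 4 genes were lower. Among all probe sets 25.2% were called higher and 23.6% lower in the mutant, against 21.4% higher and 22.2% lower in the reference strain. The 9 of 10 permeases called in the mutant and 8 of 10 in the reference strain are larger shares than these, and the permeases were not tested as a set.

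The 4 genes known as targets of nitrogen catabolite repression, GAP1, PUT4, CAN1 and AGP1, were all higher under nitrogen limitation on glucose in both strains. AGP1 measured 13.35 and 13.41 in nitrogen-limited mutant arrays, against 12.19 and 12.16 in glucose-limited mutant arrays. The reference strain gave 13.34 and 13.41 under nitrogen limitation, against 12.53 and 12.47 under glucose limitation. Both nitrogen-limited arrays were above both glucose-limited arrays in each strain, and the difference was 1.21 (SE 0.05, adjusted p = 1.42e-08) in the mutant and 0.88 (SE 0.05, adjusted p = 2.55e-07) in the reference strain.
PUT4 measured 14.21 and 14.12 under nitrogen limitation, against 13.51 and 13.56 under glucose limitation in the mutant, and 14.22 and 14.10, against 13.24 and 13.26, in the reference strain. The nitrogen-limited levels of the strains overlapped, while the glucose-limited arrays of the mutant were both above those of the reference strain. The proline permease gene was thus 1.55-fold higher under nitrogen limitation in the mutant (adjusted p = 3.67e-06) and 1.89-fold higher in the reference strain (adjusted p = 2.55e-07).
GAP1, the general amino acid permease gene, was also higher under nitrogen limitation in both strains. Its values were 14.29 and 14.25 under nitrogen limitation, against 14.04 and 13.98 under glucose limitation in the mutant, a difference of 0.26 (SE 0.06, adjusted p = 0.0046). They were 14.34 and 14.33, against 13.51 and 13.69, in the reference strain, a difference of 0.73 (SE 0.06, adjusted p = 4.49e-06).
CAN1 measured 12.86 and 12.87 under nitrogen limitation, against 12.06 and 11.82 under glucose limitation in the mutant, and 12.76 and 12.88, against 12.13 and 11.95, in the reference strain. It was higher by 0.93 in the mutant (SE 0.09, adjusted p = 1.45e-05) and by 0.78 in the reference strain (SE 0.09, adjusted p = 6.66e-05).

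The other group of genes, known as targets of the SPS sensor, was lower under nitrogen limitation on glucose, apart from AGP1, which responds to both signals, and BAP3. TAT2 measured 8.50 and 8.78 under nitrogen limitation, against 10.63 and 10.70 under glucose limitation in the mutant. The reference strain had 7.88 and 8.29 under nitrogen limitation, against 11.26 and 11.16 under glucose limitation. The tryptophan permease gene was 4.07-fold lower in the mutant (adjusted p = 3.60e-07) and 8.74-fold lower in the reference strain (adjusted p = 1.61e-08). The nitrogen-limited reference values lay within the range of the dim BAP3 probe set, 6.64 to 8.59.
BAP2 measured 12.05 and 11.91, against 13.58 and 13.47 under glucose limitation in the mutant, and 11.20 and 11.27, against 13.46 and 13.56, in the reference strain. The strains overlapped under glucose limitation but not under nitrogen limitation, where both mutant arrays were higher. The difference between limitations was -1.54 (SE 0.07, adjusted p = 3.38e-08) in the mutant and -2.27 (SE 0.07, adjusted p = 2.63e-09) in the reference strain.
GNP1 measured 9.91 and 10.04 under nitrogen limitation, against 11.99 and 11.88 under glucose limitation in the mutant, and 9.55 and 9.96, against 11.67 and 11.72, in the reference strain. It was 3.90-fold lower in the mutant (adjusted p = 5.86e-07) and 3.83-fold in the reference strain (adjusted p = 8.67e-07), while AGP1, its paralog, was higher in both strains.
TAT1 measured 8.72 and 8.81, against 9.69 and 9.64 under glucose limitation in the mutant, a difference of -0.90 (SE 0.13, adjusted p = 0.00024). Reference arrays measured 8.79 and 9.16, against 9.53 and 9.28, a difference of -0.43 (SE 0.13, adjusted p = 0.022).

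LYP1, like CAN1 a permease for basic amino acids, differed less. It measured 13.59 and 13.63 under nitrogen limitation, against 13.45 and 13.32 under glucose limitation in the mutant, a called difference of 0.23 (SE 0.07, adjusted p = 0.025). In the reference strain it measured 13.37 and 13.50, against 13.21 and 13.38, an uncalled difference of 0.14 with overlapping arrays.
BAP3 was not called in either strain, with differences of 0.05 in the mutant and 0.22 in the reference strain. Its probe set was dim, with a mean log2 intensity in the lowest 1.10% of probe sets, and its SE of 0.31 was larger than that of the other 9 genes.
The weakest of the calls depended on single arrays. The TAT1 difference in the reference strain did not pass without replicate 1 of the glucose-limited arrays (-0.31, adjusted p = 0.15), without replicate 1 of the nitrogen-limited arrays (-0.24, adjusted p = 0.18), after quantile normalization (-0.26, adjusted p = 0.097) or in a fit of only the 4 arrays compared (adjusted p = 0.14), and the LYP1 difference in the mutant did not pass without replicate 2 of the glucose-limited arrays (0.16, adjusted p = 0.17), replicate 1 of the nitrogen-limited arrays (0.25, adjusted p = 0.063) or replicate 2 of the nitrogen-limited arrays (0.21, adjusted p = 0.11).

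**Figure D2:**
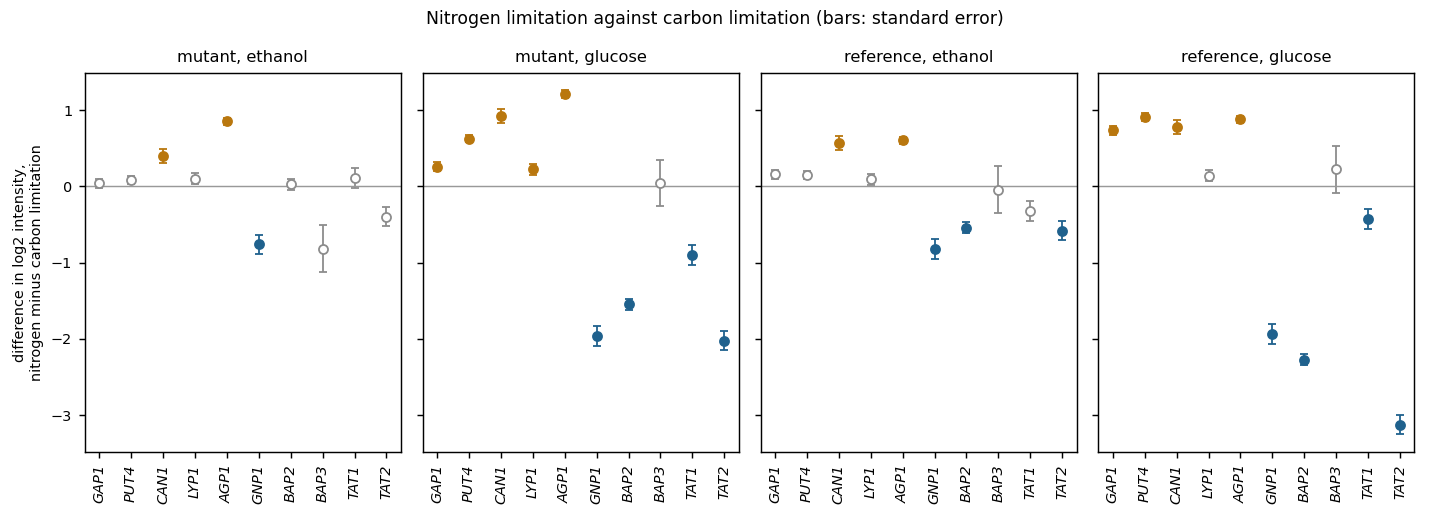
Difference in log2 intensity between nitrogen and carbon limitation (y axis; positive where nitrogen limitation is higher) for the 10 permeases (x axis) in each strain and on each carbon source, with bars of 1 SE. Filled orange points were called higher, filled blue points called lower and open points not called; TAT2 stood at -0.40 in the mutant and -0.58 in the reference strain on ethanol, and at -2.02 in the mutant and -3.13 in the reference strain on glucose.

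On ethanol fewer permeases differed between nitrogen limitation and ethanol limitation. In the mutant AGP1 and CAN1 were higher and GNP1 was lower, and in the reference strain AGP1 and CAN1 were higher and GNP1, BAP2 and TAT2 were lower. The background was smaller as well, with calls for 6.53% (higher) and 7.79% (lower) of all probe sets in the mutant, against 4.62% (higher) and 3.59% (lower) in the reference strain. In the mutant the balance of that background depended on the scaling, with 10.5% higher and 5.67% lower on quantile-normalized values and 11.6% higher and 5.65% lower on median-centred ones.
AGP1 measured 12.14 and 12.16 under nitrogen limitation, against 11.36 and 11.24 under ethanol limitation in the mutant, a difference of 0.85 (SE 0.05, adjusted p = 3.89e-06). Reference arrays gave 12.24 and 12.22, against 11.60 and 11.66, a difference of 0.60 (SE 0.05, adjusted p = 5.02e-05). Both nitrogen-limited arrays lay above both ethanol-limited arrays in each strain.
CAN1 measured 12.61 and 12.62, against 12.30 and 12.14 in the mutant, a difference of 0.40 (SE 0.09, adjusted p = 0.019), and 12.56 and 12.65, against 11.98 and 12.09, in the reference strain, a difference of 0.57 (SE 0.09, adjusted p = 0.0037).
GNP1 measured 10.34 and 10.09 under nitrogen limitation, against 11.03 and 10.92 under ethanol limitation in the mutant, and 10.29 and 10.10, against 11.02 and 11.01, in the reference strain. The glutamine permease gene was 1.69-fold lower in the mutant (adjusted p = 0.0042) and 1.77-fold lower in the reference strain (adjusted p = 0.0031).
BAP2 measured 12.95 and 12.93 under nitrogen limitation, against 12.94 and 12.89 under ethanol limitation in the mutant, with overlapping arrays and a difference of 0.03. Reference arrays had 12.67 and 12.49, against 13.14 and 13.10, a difference of -0.54 (SE 0.07, adjusted p = 0.00095).
TAT2 measured 9.78 and 9.72, against 10.10 and 10.19 in the mutant, a difference of -0.40 that was not called (adjusted p = 0.058). In the reference strain it measured 9.68 and 9.56, against 10.19 and 10.21, a called difference of -0.58 (SE 0.12, adjusted p = 0.018).
GAP1 and PUT4, which were both higher on glucose, were not called on ethanol, with differences of 0.04 and 0.08 in the mutant and of 0.16 and 0.16 in the reference strain. LYP1, TAT1 and BAP3 were not called in either strain.
TAT2 in the reference strain did not pass without any 1 of its 4 arrays, with differences between -0.64 and -0.52 and adjusted p between 0.054 and 0.11, and CAN1 in the mutant did not pass without replicate 2 under ethanol limitation (0.32, adjusted p = 0.15), replicate 1 under nitrogen limitation (0.40, adjusted p = 0.068) or replicate 2 under nitrogen limitation (0.39, adjusted p = 0.11). Fits of only the 4 arrays compared called none of the 5 genes in the reference strain, with adjusted p between 0.063 and 0.12, and called AGP1 alone in the mutant.

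Whether the effect of the limitation differed between the carbon sources was tested in the reference strain with an interaction contrast, ethanol minus glucose. Of the 10 permeases 3 had a higher and 3 a lower difference on ethanol, among 14.0% of all probe sets higher and 10.5% lower. The fall of TAT2 was smaller on ethanol by 2.55 log2 units (SE 0.18, adjusted p = 3.36e-06), that of BAP2 by 1.73 (SE 0.10, adjusted p = 9.88e-07) and that of GNP1 by 1.12 (SE 0.18, adjusted p = 0.0014). The rises of PUT4, GAP1 and AGP1 were smaller on ethanol too, with interactions of -0.76 (adjusted p = 3.95e-05), -0.57 (adjusted p = 0.00074) and -0.27 (adjusted p = 0.017). The carbon-limited mean was higher on ethanol than on glucose for PUT4 (13.65 against 13.25) and GAP1 (14.06 against 13.60). It was lower on ethanol for AGP1 (11.63 against 12.50). For CAN1 the interaction of -0.21 (SE 0.13) was not called.
The AGP1 interaction did not pass without replicate 2 of any 1 of the 4 groups, with values between -0.26 and -0.24 and adjusted p between 0.052 and 0.064, nor in a fit of only the 8 arrays compared (adjusted p = 0.063).

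The same arrays, read across carbon sources, showed which permeases differed between ethanol and glucose. AGP1 was lower on ethanol and TAT1 was higher on ethanol in both strains and under both limitations, 4 comparisons that share no arrays with each other. BAP2 and TAT2 were lower on ethanol under carbon limitation and higher on ethanol under nitrogen limitation in both strains. PUT4 did the opposite in both strains. These comparisons use the arrays already described for the limitations.

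Under nitrogen limitation 3 permeases were higher and 2 lower on ethanol in the mutant, among 19.5% of all probe sets higher and 23.0% lower, and 4 were higher and 2 lower in the reference strain, among 17.7% higher and 15.9% lower. The counts in the mutant lay near these shares, and the permeases were not tested as a set. TAT2 measured 9.78 and 9.72 on ethanol, against 8.50 and 8.78 on glucose in the mutant, and 9.68 and 9.56, against 7.88 and 8.29, in the reference strain. It was 2.16-fold higher on ethanol in the mutant (adjusted p = 5.31e-05) and 2.90-fold higher in the reference strain (adjusted p = 5.86e-06).
BAP2 was 1.95-fold higher on ethanol in the mutant (adjusted p = 2.21e-06) and 2.53-fold higher in the reference strain (adjusted p = 2.27e-07), and TAT1 was 2.73-fold higher in the mutant (adjusted p = 1.05e-05) and 1.82-fold higher in the reference strain (adjusted p = 0.0006). TAT1 measured 10.26 and 10.17 on ethanol, against 8.72 and 8.81 on glucose in the mutant, and 9.83 and 9.85, against 8.79 and 9.16, in the reference strain. The ethanol arrays lay above the glucose arrays for all 3 genes in both strains.
AGP1 went the other way and was 2.35-fold lower on ethanol in the mutant (adjusted p = 1.58e-08) and 2.21-fold lower in the reference strain (adjusted p = 4.67e-08). PUT4 was lower by 0.30 in the mutant (adjusted p = 0.00094) and by 0.36 in the reference strain (adjusted p = 0.00044). GNP1 was called in the reference strain (0.44, SE 0.13, adjusted p = 0.024) and not in the mutant (0.24, adjusted p = 0.16).
The GNP1 call did not hold without replicate 1 of the nitrogen-limited arrays on glucose (0.23, adjusted p = 0.18), without replicate 1 of those on ethanol (0.34, adjusted p = 0.15) or in a fit of only the 4 arrays compared (adjusted p = 0.18). In that fit PUT4 in the reference strain was not called either (adjusted p = 0.059).

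Under carbon limitation 3 permeases were higher and 4 lower on ethanol than on glucose in each strain. In the mutant PUT4, CAN1 and TAT1 were higher and AGP1, GNP1, BAP2 and TAT2 were lower, among 16.2% of all probe sets higher and 15.7% lower, or 12.5% and 19.9% on median-centred values. In the reference strain GAP1, PUT4 and TAT1 were higher and the same 4 genes were lower, among 11.3% higher and 13.0% lower.
AGP1 measured 11.36 and 11.24 under ethanol limitation, against 12.19 and 12.16 under glucose limitation in the mutant, and 11.60 and 11.66, against 12.53 and 12.47, in the reference strain. It was 1.84-fold lower in the mutant (adjusted p = 7.50e-07) and 1.83-fold lower in the reference strain (adjusted p = 9.05e-07).
TAT2 measured 10.10 and 10.19, against 10.63 and 10.70 in the mutant, and 10.19 and 10.21, against 11.26 and 11.16, in the reference strain. The ethanol-limited arrays of the strains overlapped, and the difference was -0.52 (SE 0.12, adjusted p = 0.011) in the mutant and -1.01 (SE 0.12, adjusted p = 0.00027) in the reference strain.
GNP1 was lower by 0.96 in the mutant (adjusted p = 0.00035) and by 0.68 in the reference strain (adjusted p = 0.0033), and BAP2 was lower by 0.61 in the mutant (adjusted p = 0.00015) and by 0.39 in the reference strain (adjusted p = 0.0027). TAT1 was higher by 0.44 in the mutant (adjusted p = 0.028) and by 0.75 in the reference strain (adjusted p = 0.0021). PUT4 was higher by 0.24 in the mutant (adjusted p = 0.0065) and by 0.40 in the reference strain (adjusted p = 0.00037).
GAP1 was higher by 0.46 in the reference strain (SE 0.06, adjusted p = 0.00041), with a difference of 0.17 in the mutant that was not called (adjusted p = 0.059), and CAN1 was higher by 0.28 in the mutant (SE 0.09, adjusted p = 0.039), with a difference under 0.01 in the reference strain.
In the mutant the calls of CAN1, TAT1, TAT2 and PUT4 each rested on more than 1 array. CAN1 lost its call without replicate 2 under glucose limitation (0.16, adjusted p = 0.26), without replicate 1 under ethanol limitation (0.21, adjusted p = 0.20), after quantile normalization (adjusted p = 0.082), after median centring (adjusted p = 0.094) and in a fit of only the 4 arrays compared (adjusted p = 0.11). TAT1 lost it without replicate 1 (0.46, adjusted p = 0.092) or replicate 2 (0.42, adjusted p = 0.12) under glucose limitation, without replicate 1 under ethanol limitation (0.28, adjusted p = 0.18) and in that small fit (adjusted p = 0.053), TAT2 without replicate 2 under glucose limitation (-0.48, adjusted p = 0.063) or replicate 1 under ethanol limitation (-0.47, adjusted p = 0.059), and PUT4 without replicate 1 under glucose limitation (0.21, adjusted p = 0.055) or replicate 2 under ethanol limitation (0.20, adjusted p = 0.054). Without replicate 2 under glucose limitation or replicate 1 under ethanol limitation 4 of the 7 genes remained called, and in the reference strain GAP1 was not called in a fit of only the 4 arrays compared (adjusted p = 0.06).

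**Figure D3:**
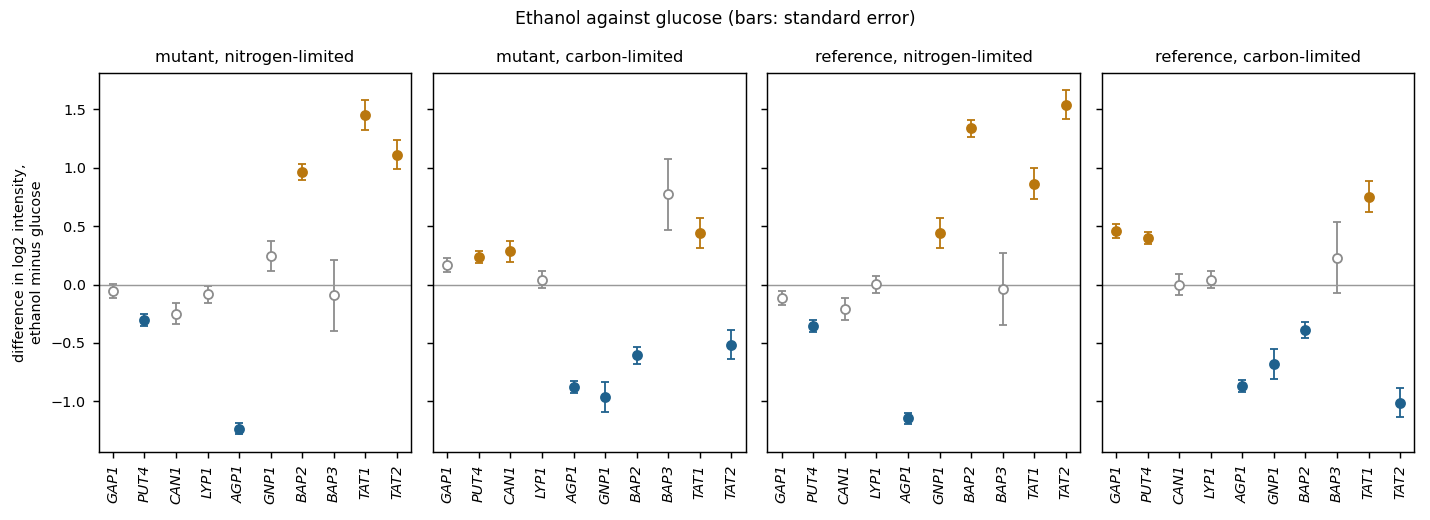
Difference in log2 intensity between ethanol and glucose (y axis; positive where ethanol is higher) for the 10 permeases (x axis) in each strain and under each limitation, with bars of 1 SE and colours for calls higher (orange), lower (blue) and none (open). TAT2 stood at 1.11 in the mutant and 1.54 in the reference strain under nitrogen limitation, against -0.52 and -1.01 under carbon limitation.

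The comparison of the mutant with the reference strain asked which permease genes depended on the strain in each of the 4 conditions. For no permease was the strain difference called in all 4 conditions, and BAP2, TAT2 and AGP1 were called in 2 of them. Under nitrogen limitation on ethanol BAP2 alone was called, higher in the mutant, among 5.65% of all probe sets higher and 10.1% lower. On quantile-normalized values these shares were 9.45% and 7.05%, and on median-centred values 9.25% and 7.21%. Under ethanol limitation BAP3 was higher and AGP1 lower in the mutant, among 12.2% of probe sets higher and 12.6% lower. Under nitrogen limitation on glucose BAP2 and TAT2 were higher, among 9.99% higher and 11.1% lower, or 13.1% and 9.38% after quantile normalization. Under glucose limitation GAP1 and PUT4 were higher and AGP1 and TAT2 lower, among 9.41% higher and 8.80% lower. The counts of 1, 2, 2 and 4 of 10 permeases lay near these shares in the first 3 conditions, and a result about the permeases as a set cannot be read from them.

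BAP2 was higher in the mutant under nitrogen limitation on both carbon sources. On ethanol it measured 12.95 and 12.93 in the mutant, against 12.67 and 12.49 in the reference strain, a difference of 0.37 (SE 0.07, adjusted p = 0.0070). On glucose it measured 12.05 and 11.91 in the mutant, against 11.20 and 11.27 in the reference strain, a difference of 0.74 (SE 0.07, adjusted p = 5.41e-05). Both mutant arrays were above both reference arrays on each carbon source, while under glucose limitation the strains overlapped and differed by 0.01. Under ethanol limitation the direction was the opposite, with 12.94 and 12.89 in the mutant, against 13.14 and 13.10 in the reference strain. That difference of -0.20 (SE 0.07, adjusted p = 0.062) was not called, though the arrays did not overlap.
TAT2 differed between the strains in opposite directions on glucose. Under nitrogen limitation it measured 8.50 and 8.78 in the mutant, against 7.88 and 8.29 in the reference strain (difference 0.56, SE 0.12, adjusted p = 0.010). Under glucose limitation it measured 10.63 and 10.70 in the mutant, against 11.26 and 11.16 in the reference strain (difference -0.55, SE 0.12, adjusted p = 0.014).
AGP1 was lower in the mutant under both carbon limitations, by 0.33 under ethanol limitation (SE 0.05, adjusted p = 0.0015) and by 0.32 under glucose limitation (SE 0.05, adjusted p = 0.0021). Under nitrogen limitation its differences were -0.08 on ethanol and 0.01 on glucose, neither of them called.
GAP1 was higher in the mutant under glucose limitation by 0.41 (SE 0.06, adjusted p = 0.0016) and PUT4 by 0.29 (SE 0.05, adjusted p = 0.0050). In the other 3 conditions the strain differences of these 2 genes lay between -0.06 and 0.13, none of them called.
BAP3 measured 7.68 and 8.59 in ethanol-limited mutant arrays, against 6.82 and 7.28 in the reference strain, a difference of 1.08 (SE 0.31, adjusted p = 0.028). The 2 mutant arrays differed by 0.90, the largest gap between arrays of a group for any of these genes.
The BAP3 call did not hold without replicate 2 of the mutant (0.63, adjusted p = 0.22), without replicate 1 of the reference strain (0.85, adjusted p = 0.17), after quantile normalization (0.60, adjusted p = 0.091) or in a fit of only the 4 arrays compared (adjusted p = 0.14). TAT2 was not called under nitrogen limitation on glucose without replicate 2 of the mutant (0.42, adjusted p = 0.096), without replicate 1 of the reference strain (0.35, adjusted p = 0.057) or in a fit of 4 arrays (adjusted p = 0.14), nor under glucose limitation without replicate 1 (-0.51, adjusted p = 0.080) or replicate 2 (-0.58, adjusted p = 0.056) of the mutant or replicate 1 of the reference strain (-0.49, adjusted p = 0.071). Fits of only the 4 arrays compared also left uncalled AGP1 under ethanol limitation (adjusted p = 0.077), BAP2 under nitrogen limitation on ethanol (adjusted p = 0.11) and GAP1, AGP1 and PUT4 under glucose limitation (adjusted p = 0.077, 0.057 and 0.066).

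**Figure D4:**
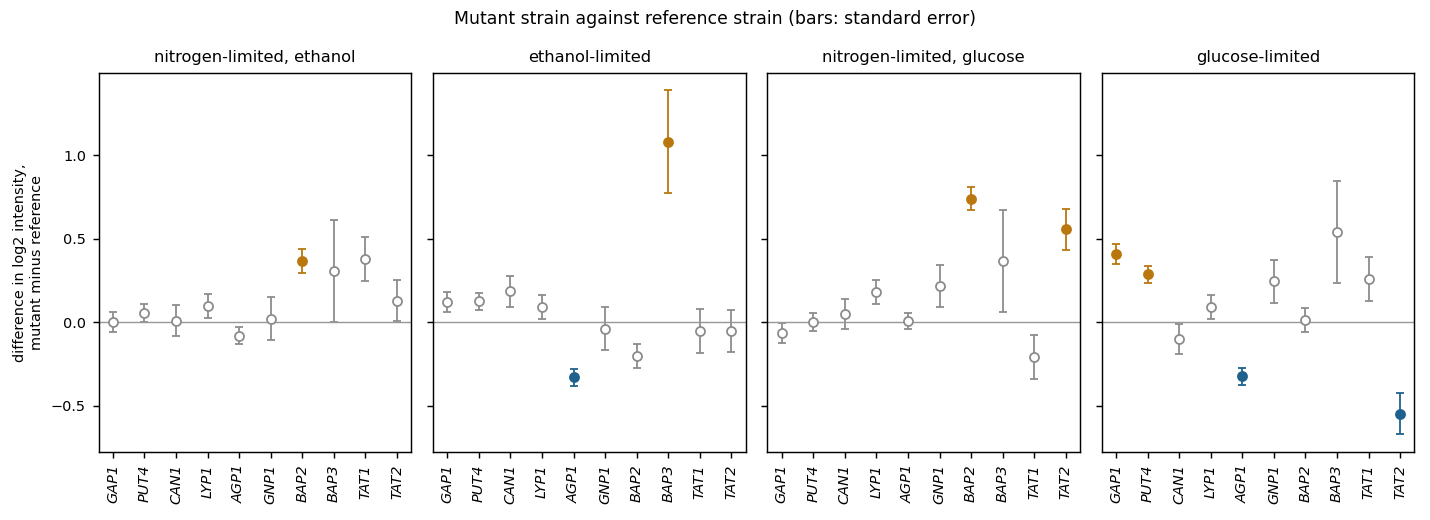
Difference in log2 intensity between the mutant and the reference strain (y axis; positive where the mutant is higher) for the 10 permeases (x axis) in the 4 conditions, with bars of 1 SE and colours for calls higher (orange), lower (blue) and none (open). BAP2 stood at 0.37 and 0.74 under nitrogen limitation on ethanol and on glucose, and BAP3, with the longest bars, at 1.08 under ethanol limitation.

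Interaction contrasts tested whether the response to the limitation itself differed between the strains, mutant minus reference. On glucose 3 permeases had a higher and 2 a lower difference in the mutant, among 10.2% of all probe sets higher and 10.5% lower. The falls of TAT2 and BAP2 under nitrogen limitation were smaller in the mutant by 1.10 (SE 0.18, adjusted p = 0.0016) and 0.73 (SE 0.10, adjusted p = 0.00068). The rise of AGP1 was larger in the mutant by 0.33 (SE 0.07, adjusted p = 0.0085). The rises of GAP1 and PUT4 were smaller, with interactions of -0.47 (SE 0.08, adjusted p = 0.0033) and -0.29 (SE 0.07, adjusted p = 0.021). For GNP1 the responses differed by -0.03 (SE 0.18) and for TAT1 by -0.47 (SE 0.19, adjusted p = 0.11), neither of them called.
On ethanol the BAP2 response was the 1 called, with an interaction of 0.57 (SE 0.10, adjusted p = 0.010), among 2.34% of all probe sets higher and 3.88% lower, or 4.37% and 2.57% on quantile-normalized and 3.74% and 2.55% on median-centred values.
The PUT4 interaction on glucose did not pass without replicate 2 under glucose limitation (-0.26, adjusted p = 0.075) or replicate 2 under nitrogen limitation (-0.24, adjusted p = 0.082) of the mutant, without replicate 1 under glucose limitation (-0.27, adjusted p = 0.060) or replicate 1 under nitrogen limitation (-0.23, adjusted p = 0.065) of the reference strain, or in a fit of only the 8 arrays compared (adjusted p = 0.083).

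Over the 8 group means, which share arrays, strains and conditions, some permeases followed each other closely. BAP2 and TAT2 correlated at 0.97, GAP1 and PUT4 at 0.93, TAT2 and GNP1 at 0.91 and CAN1 and PUT4 at 0.88. Other pairs ran opposite, most of all TAT2 and PUT4 at -0.97, GNP1 and CAN1 at -0.95 and AGP1 and TAT1 at -0.92. With the other known targets of nitrogen catabolite repression AGP1 correlated less closely, at 0.23 with GAP1, 0.52 with PUT4 and 0.68 with CAN1. BAP2 and TAT1, which are direct neighbours on the chromosome in the RefSeq annotation of assembly R64, correlated at 0.62. These correlations describe 8 points and carry no test.
Outside the 10 permeases, the 2 genes most like each were sought among 983 genes whose group means varied by an SD of at least 0.3. For GAP1 they were MEP2, an ammonium permease (0.95), and GLT1, glutamate synthase (0.94). For CAN1 they were DCG1 (0.99) and the urea transporter DUR3 (0.99), for PUT4 ECM38, a gamma-glutamyltranspeptidase (0.98), and VHC1 (0.97), and for LYP1 the vacuolar carboxypeptidase CPS1 (0.90) and ERD1 (0.88). The group means of LYP1 and GAP1 themselves varied by less than that limit, with SDs of 0.10 and 0.23. For LYP1 the arrays of a group differed by up to 0.17, against a range of 0.32 over its group means. For both TAT2 (0.99) and BAP2 (0.99) the closest gene was YBR071W, which the annotation places near TAT1, with TBRT and ALG14 in between. The other gene of the pair was KDX1 for TAT2 (0.98) and the phospholipase PLB2 for BAP2 (0.98). For GNP1 they were UPC2, a regulator of sterol genes, and OSW2 (both 0.98), for TAT1 the permease family member AGP2 and YAR066W (both 0.98), for AGP1 YHR112C (0.98) and RAD59 (0.96), and for BAP3, whose values were noisy, YDR524W-C and VAM10 (both 0.97).

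A chosen list of 10 other permeases divided in a similar way under nitrogen limitation on glucose. In the mutant 5 were higher and 5 lower, with a median difference of -0.04, and in the reference strain 4 were higher and 6 lower, with a median of -0.64, while the median of all probe sets was 0.00 in both strains. All 10 were called in each strain, among shares over all probe sets of 25.2% higher and 23.6% lower in the mutant, against 21.4% higher and 22.2% lower in the reference strain. DIP5, the permease for glutamate and aspartate, was higher by 2.78 in the mutant (adjusted p = 9.05e-10) and by 2.90 in the reference strain (adjusted p = 1.14e-09). ALP1, an arginine permease and paralog of CAN1, was lower by 1.80 in the mutant (adjusted p = 7.09e-07) and by 1.82 in the reference strain (adjusted p = 8.47e-07). AGP3 was lower by 1.70 in the mutant and by 1.42 in the reference strain, MMP1, the S-methylmethionine permease, was lower by 1.64 in the mutant, and UGA4, the permease for gamma-aminobutyrate, was higher by 2.03 in the reference strain.
On ethanol 7 of these 10 were higher and none lower under nitrogen limitation in the mutant, and 4 were higher and none lower in the reference strain. Of all probe sets 6.53% were higher and 7.79% lower in the mutant, against 4.62% higher and 3.59% lower in the reference strain. The counts of the 10 permeases depended on single arrays and on the fit. In the mutant 3 of the 7 were called without replicate 2 under ethanol limitation or either replicate under nitrogen limitation, and 2 in a fit of only the 4 arrays compared. Of the 4 in the reference strain, 2 were called without replicate 1 or replicate 2 under ethanol limitation, 1 (DIP5) without replicate 1 under nitrogen limitation and none in a fit of only the 4 arrays compared. MUP1, a high-affinity methionine permease, and DIP5 had the largest differences in the mutant, 1.12 (adjusted p = 5.32e-06) and 1.09 (adjusted p = 2.13e-05), and DIP5 was higher by 0.97 in the reference strain (adjusted p = 5.05e-05, or 0.066 in a fit of only the 4 arrays compared).
Between the strains, UGA4 was lower in the mutant under nitrogen limitation on glucose, by 0.89 (adjusted p = 0.0085), and on ethanol, by 0.92 (adjusted p = 0.0099). The call on glucose was lost without replicate 2 of the mutant (-0.87). The call on ethanol was lost without either mutant replicate (both -0.92) or replicate 1 of the reference strain (-0.72), and in a fit of only the 4 arrays compared (adjusted p = 0.086). MUP1 was higher in the mutant under nitrogen limitation on ethanol, by 0.68 (adjusted p = 0.00014), and on glucose, by 0.72 (adjusted p = 5.79e-05). Under glucose limitation MUP1 was lower in the mutant, by 0.40 (adjusted p = 0.0038, or 0.056 in a fit of only the 4 arrays compared).

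**Figure D5:**
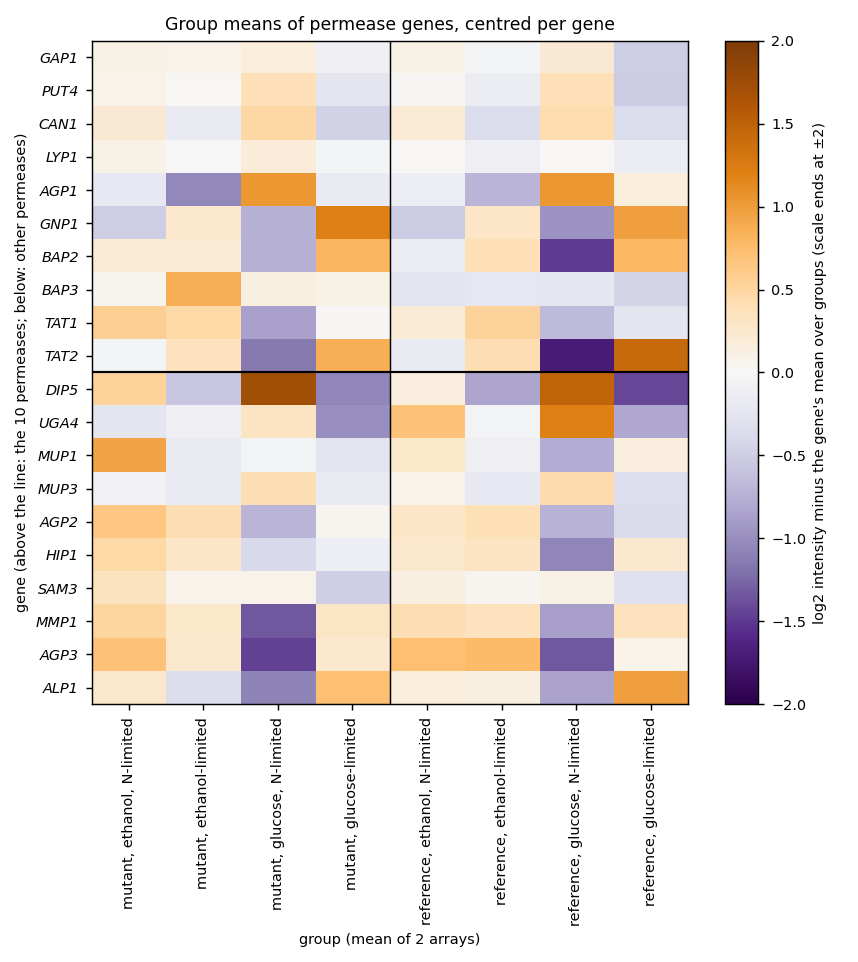
Group means of log2 intensity of the 10 permeases (above the line) and of the chosen list of 10 other permeases (below it), each minus the mean of its gene over the 8 groups (colour), with the groups along the x axis. Under nitrogen limitation on glucose DIP5 lay 1.73 above its mean in the mutant and 1.48 above it in the reference strain, while TAT2 lay at -1.15 and -1.71.

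Genes of the pathways that act on the permeases were described by the same counts. Of 5 regulators of nitrogen catabolite repression, the repressor gene DAL80 and the activator gene GAT1 were higher under nitrogen limitation on glucose, DAL80 by 2.43 in the mutant (adjusted p = 5.44e-09) and 2.57 in the reference strain (adjusted p = 5.36e-09), and GAT1 by 0.45 in the mutant (adjusted p = 2.28e-05) and 0.59 in the reference strain (adjusted p = 3.67e-06). GLN3, GZF3 and URE2 were not called in either strain. Over all probe sets 25.2% were called higher and 23.6% lower in the mutant, against 21.4% and 22.2% in the reference strain. On ethanol DAL80 was higher by 0.39 in the mutant (adjusted p = 0.019) and by 1.27 in the reference strain (adjusted p = 1.67e-05), and no other regulator of this list was called there. The shares over all probe sets on ethanol were 6.53% higher and 7.79% lower in the mutant, against 4.62% and 3.59% in the reference strain. The DAL80 difference on ethanol in the mutant did not pass without any 1 of its 4 arrays (0.35 to 0.43). In fits of only the 4 arrays compared DAL80 passed in neither strain (adjusted p = 0.064 in the mutant and 0.053 in the reference strain).
Of 13 genes of the SPS sensor pathway, 4 were higher and none lower under nitrogen limitation on glucose in the mutant, and 3 higher and none lower in the reference strain. Of all probe sets 25.2% were higher and 23.6% lower in the mutant, against 21.4% higher and 22.2% lower in the reference strain. The counts of pathway genes called higher lay near these shares, and the list was not tested as a set. Of the genes called, PTR3 alone kept its call without each single array in both strains. In the mutant YCK2, STP1 and SSY5 were not called without replicate 1 or replicate 2 under glucose limitation or replicate 2 under nitrogen limitation, which left 1 gene higher, and without replicate 2 under glucose limitation RTS1 was called lower. GRR1 and DAL81 were not called in the reference strain without replicate 1 under glucose limitation, which left 1 of 3, nor without replicate 1 under nitrogen limitation, where ASI2 and ASI3 were called instead. DAL81 in the reference strain also lost its call without replicate 2 under nitrogen limitation (0.28), where a gene of the list was called lower. A fit of only the 4 arrays compared called 4 higher and 3 lower in the mutant. PTR3, a component of the sensor, was higher by 0.32 in the mutant (adjusted p = 0.0040) and by 0.52 in the reference strain (adjusted p = 0.00024). On ethanol limma called none of the 13 in either strain, and 1 in each strain had an unadjusted p under 0.05. Calls were few over all probe sets too, 6.53% higher and 7.79% lower in the mutant, against 4.62% and 3.59% in the reference strain. Without replicate 1 under ethanol limitation or replicate 1 under nitrogen limitation DAL81 was called lower in the mutant.
Of 17 genes for the packaging, sorting and ubiquitination of permeases, 3 were higher and 5 lower in the mutant and 5 higher and 4 lower in the reference strain under nitrogen limitation on glucose. These shares are near the background of 25.2% higher and 23.6% lower in the mutant and 21.4% higher and 22.2% lower in the reference strain. CSR2, which encodes an arrestin-like adaptor of the ubiquitin ligase Rsp5, was lower by 2.36 in the mutant (adjusted p = 6.54e-11) and by 0.50 in the reference strain (adjusted p = 1.56e-05), and the mutant was lower than the reference strain by 1.68 in that condition (adjusted p = 1.52e-08). ECM21 was lower by 0.60 in the mutant (adjusted p = 0.00018). NPR1, which encodes a kinase that stabilizes permeases at the cell surface, was higher by 0.39 in the mutant (adjusted p = 0.00052) and by 0.55 in the reference strain (adjusted p = 6.56e-05).
Of 12 vacuolar amino acid transporters, 7 were higher and 2 lower in the mutant and 8 higher and 3 lower in the reference strain under nitrogen limitation on glucose, among shares over all probe sets of 25.2% higher and 23.6% lower in the mutant, against 21.4% higher and 22.2% lower in the reference strain. Without replicate 1 under glucose limitation or replicate 1 under nitrogen limitation, and in a fit of only the 4 arrays compared, 6 were higher and 1 lower in the reference strain. VBA1, a vacuolar transporter of basic amino acids, was higher by 1.43 in the mutant (adjusted p = 2.29e-09) and by 1.44 in the reference strain (adjusted p = 3.25e-09), and AVT4, an exporter of amino acids from the vacuole, by 0.90 in the mutant (adjusted p = 2.27e-06) and 0.71 in the reference strain (adjusted p = 1.88e-05). VBA3 was lower by 1.34 in the mutant (adjusted p = 0.00021). In the reference strain VBA3 was lower by 0.65 (adjusted p = 0.018, or 0.15 in a fit of only the 4 arrays compared).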

How the data were processed

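The values deposited by the authors are intensities on a linear scale, 1 per probe set and array, which their notes say were made with GCRMA, without a version. No source used here states how the log scale was undone. The lowest intensity was 1. Log2 was taken without an offset. Probe sets were named through the platform annotation, where 5498 of 5716 carry 1 symbol and 218 none. Each gene was taken by its brightest probe set.

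A linear model with a mean for each of 8 groups took in all 16 arrays (R 4.3.3, limma 3.58.1; 8 residual and 2.01 prior degrees of freedom), giving 15 contrasts, each adjusted over 5716 probe sets. The fit was first tested on simulated data, and the number of arrays limits its precision.

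The members, the 5 gene lists and the tests were chosen with earlier results of these data known. Named were the 10 members, the 2 genes most like each, and a selection from the 4 largest called differences of a list in a comparison. List genes whose call changed in an alternative fit, and uncalled regulators, were named as well. For the reference strain under glucose limitation the title and the description give opposite replicate numbers, and the title was used. Alternatives were quantile normalization, median centring, the probe sets above the median intensity, a trended and robust moderation, fits of only the arrays compared, a replicate block and leaving out each array.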

Additional observations from a re-analysis of the deposited data

Results flagged for a closer look

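Differences between groups of samples in their response to the limitation were found for 6 permeases. In the reference strain the response differed between ethanol and glucose for TAT2 (2.55), BAP2 (1.73), GNP1 (1.12), PUT4 (-0.76), GAP1 (-0.57) and AGP1 (-0.27), given as the log2 difference on ethanol minus that on glucose. Between the strains the response on glucose, mutant minus reference, differed for TAT2 (1.10), BAP2 (0.73), AGP1 (0.33), GAP1 (-0.47) and PUT4 (-0.29), and the response on ethanol differed for BAP2 (0.57). Each passed an interaction test in the fit to all arrays. The AGP1 call between carbon sources and the PUT4 call between strains were each lost under 5 of 14 alternatives. Over all probe sets 14.0% were higher and 10.5% lower in the test between carbon sources. Between the strains the shares were 10.2% and 10.5% on glucose, and 2.34% and 3.88% on ethanol. What lies behind these differences was not tested.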

How the results depend on the processing

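Of the 71 called differences of the permeases, 45 passed under every alternative that included them, 26 lost the call under at least 1, and none changed sign. With the trended, robust moderation all 71 were called. Fits of only the arrays compared called 49 of 71: 0 permeases for nitrogen against ethanol limitation in the reference strain and for the strains under ethanol limitation and under nitrogen limitation on ethanol, and 1 each for nitrogen against ethanol limitation in the mutant and for the strains under glucose limitation and under nitrogen limitation on glucose. These fits have fewer arrays to estimate the spread. Among the 2858 probe sets above the median intensity, which leave out BAP3, TAT1, TAT2 and GNP1, the counts were 5 for nitrogen against glucose limitation, 3 for nitrogen against ethanol limitation, 4 for ethanol against glucose limitation and 3 for ethanol against glucose with nitrogen limiting, all in the reference strain, 1 for the strains under nitrogen limitation on glucose and 2 for the strain interaction on ethanol. All 45 called differences of the permeases kept in this setting stayed called, so counts fell only through the genes left out. Quantile normalization gave 1 call for the strains under ethanol limitation, 2 under nitrogen limitation on ethanol and 2 for the strain interaction on ethanol, where median centring gave 2 as well. The added calls were AGP1 in the interaction and TAT1 between the strains, and the cause was not tested.

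Leaving out 1 array gave 4 to 6 calls for ethanol against glucose under carbon limitation in the mutant, 1 to 3 for the strains under nitrogen limitation on glucose, 1 to 2 under ethanol limitation and 1 to 2 for the strain interaction on ethanol. The counts over all probe sets moved by over 1.5 times without at least 1 array in 10 of the 15 comparisons. The lowest counts were 240 of 469 for nitrogen against ethanol limitation in the reference strain (without replicate 1 under ethanol limitation), 260 of 818 for the same in the mutant (without replicate 2 under nitrogen limitation), 576 of 1417 for the strains under ethanol limitation (without replicate 2 of the mutant), 504 of 1041 for the strains under glucose limitation (without replicate 2 of the reference strain), 605 of 1206 for the strains under nitrogen limitation on glucose and 781 of 1182 for the strain interaction on glucose (both without replicate 2 of the nitrogen-limited mutant on glucose), 365 of 902 for the strains under nitrogen limitation on ethanol and 145 of 356 for the strain interaction on ethanol (both without replicate 2 of the nitrogen-limited mutant on ethanol), and, for ethanol against glucose limitation, 1037 of 1821 in the mutant (without replicate 1 under glucose limitation) and 897 of 1388 in the reference strain (without replicate 1 under ethanol limitation).

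Replicate numbers are shared between the groups, and the fit with the replicate number as a block kept all 71 calls, while 2 of the 4 SPS pathway genes higher under nitrogen limitation on glucose in the mutant stayed called. The differences between replicates correlated at -0.68 to 0.66 over 28 pairs of groups (median 0.02), with 11 pairs over 0.1. Since both signs occurred, the numbers were not taken to pair the arrays. Correlations near either end of that range are variation shared by arrays of different groups, which the fit to all arrays did not model. Averaging several probe sets of a gene was not run, since each permease has 1. With 2 arrays a group and no detection calls used here, small differences of dim probe sets such as BAP3 could not be resolved.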
